A study of Papio hamadryas with 12 samples.

Results

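The alpha and beta globin loci were described from 9 of the 27533 genes in the deposited count table. The genes were taken by position, 5 that lie within chromosome 20 from 20000 to 60000 and 4 that lie within chromosome 14 from 60000000 to 60100000, each with at least 10 counts in total. These intervals of the baboon assembly PapAnu2 are called the alpha and the beta locus by synteny with the human globin loci. The table gives Ensembl IDs and positions without gene symbols, so each gene is given by its ID and no globin name is assigned to it. The 9 genes are called globin genes below for their position alone, and whether each encodes a globin was not tested. Another 2 genes of the beta interval had 0 counts in every library, and ENSPANG00000020037 (chromosome 20 from 56611 to 102425), which runs past the end of the alpha interval, was left out with 43 to 532 counts per library. The least read of the 9 genes, ENSPANG00000008373, had 187 counts in total, so that no gene lay close to the minimum.

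Hemoglobin carries oxygen in red blood cells and is built from pairs of alpha-like and beta-like chains. The genes for each kind of chain lie side by side in a cluster, and in primates the members of a cluster are used in turn in the embryo, the fetus and the adult. Red blood cells have no nucleus, and young ones, the reticulocytes, still hold messenger RNA that is mostly globin, so globin is among the most abundant transcripts in RNA from whole blood.

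The RNA came from 6 adult baboons (Papio hamadryas), 3 with low LDL-C (baboons 1 to 3) and 3 with high LDL-C (baboons 4 to 6), numbered in no order. Each baboon gave blood on the chow diet (4% of calories as fat, 0.03 mg of cholesterol per kcal) and again after 7 weeks on the high-cholesterol, high-fat (HCHF) diet (40% and 1.7 mg per kcal), which makes 12 libraries with 3 in each combination of phenotype and diet. The animals were chosen as relatives that share 1 parent and differ in LDL-C. The labels do not say which of them belong together, so this kinship did not enter the tests. P-values of the paired diet tests measure how the difference between the diets varied from baboon to baboon. Those of the phenotype tests measure the spread between baboons. RNA was isolated from the buffy coat, the layer between plasma and packed red cells that holds the white blood cells, and the labels name white blood cells as the source. Since the table holds no gene symbols, this was not checked against marker genes.

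The libraries held 3434628 to 8518137 counts. In 3 libraries the globin loci took a share unlike that of the other 9. These were the chow library of baboon 2, where 5174 other genes had at least 10 counts, and those of baboon 1 on chow and baboon 6 on the HCHF diet, where 11286 and 11205 other genes did, compared with 8321 to 10249 in the remaining libraries. On the other genes, these 3 libraries also had the lowest mean correlation with the rest (Pearson r of log2 CPM across genes 0.85 for each, compared with 0.87 to 0.91 in the other 9). Fold changes that rest on these libraries are also given without 1 or more of their baboons. Correlations across the 12 libraries were not recomputed without them. Correlations across the 6 baboons were recomputed only without the 2 baboons farthest from the median.

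The globin loci took 44.4% or more of the counts in 10 of the 12 libraries. In low LDL-C baboons on chow the 9 genes together took 17.3% of the counts in baboon 1, 90.7% in baboon 2 and 65.1% in baboon 3. In the same baboons on the HCHF diet the shares were 50.3%, 65.0% and 60.2%. In high LDL-C baboons they were 52.8%, 57.2% and 53.7% on chow and 44.4%, 49.8% and 16.8% on the HCHF diet, for baboons 4, 5 and 6. The high LDL-C chow libraries were the most alike, while each of the low LDL-C chow and high LDL-C HCHF groups held a library far from its other two. Over the 9 libraries outside the 3 named above the share ranged from 44.4% to 65.1% (mean 55.4 ± 7.06%, SD). The 95% binomial interval (Wilson) was 16.8 to 16.9% for the lowest share, and the differences between libraries were far larger than this counting error, the only error such intervals cover. In RNA from a mixture of cells, fewer cells of a type and less RNA per cell cannot be told apart.

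**Figure D1:**
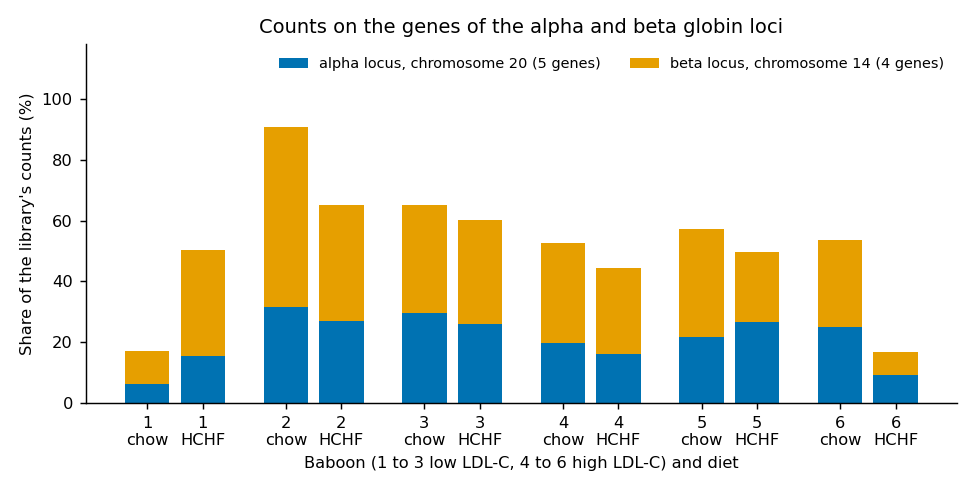
Share of each library's counts (percent, vertical axis) on the 5 genes of the alpha locus (blue) and the 4 genes of the beta locus (orange, stacked on top), for the chow and HCHF libraries of baboons 1 to 6. The stacks reach 17.3% in baboon 1 on chow, 16.8% in baboon 6 on the HCHF diet, 90.7% in baboon 2 on chow, and 44.4 to 65.1% in the others.

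A single gene carried nearly all counts of each locus. In the alpha locus this was ENSPANG00000001157 (chromosome 20 from 39182 to 41379), with 12308201 counts in total and 94.2 to 96.4% of the counts of the locus. In the beta locus it was ENSPANG00000004952 (chromosome 14 from 60046720 to 60049466), with 19391496 counts in total and 98.2 to 99.9% of the locus. They were the most abundant genes of 10 libraries, the beta gene first and the alpha gene second in 9 of these and the reverse in the HCHF library of baboon 5. The alpha gene ranked 3 in baboon 1 on chow, as did the beta gene in baboon 6 on the HCHF diet. The largest of all other genes took 0.600% (baboon 2 on chow) to 9.49% of a library.

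The remaining 7 genes were read far less. ENSPANG00000024404 (chromosome 20 from 42735 to 46902) took 0.338 to 1.54% of a library, and ENSPANG00000011638 (chromosome 14 from 60019646 to 60020727) took 0.0193 to 0.608%. The other 5, ENSPANG00000001156, ENSPANG00000019686 and ENSPANG00000013695 in the alpha locus and ENSPANG00000014359 and ENSPANG00000008373 in the beta locus, had 6673, 7409, 709, 2744 and 187 counts in total. The expected counts of ENSPANG00000011638 were not whole numbers in any library, and those of ENSPANG00000014359 and ENSPANG00000024404 were not in 11 of 12 (tolerance 0.001), as happens where reads that match several transcripts are divided among them. The values of these 3 genes therefore depend on that division, and for the most abundant genes, whose table values carry 6 digits, it could not be seen.

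The share of a minor gene in the counts of its own locus is a ratio within the locus, into which the counts of other genes do not enter. For some of the 7 genes it differed more between baboons than between the diets, while that of ENSPANG00000008373 differed up to 2.89-fold within a baboon and 2.47-fold between baboons. For ENSPANG00000011638 this share of the beta locus was 1.10% on chow and 1.12% on HCHF in baboon 1, 0.0749% and 0.0889% in baboon 2, and 0.186% and 0.140% in baboon 3. In high LDL-C baboons it was 0.461% and 0.454% in baboon 4, 1.72% and 1.49% in baboon 5, and 0.548% and 0.252% in baboon 6. Except in baboon 6, the libraries of a baboon lay close together compared with the distance between baboons, with baboon 5 highest and baboon 2 lowest on both diets. The mean of the highest baboon was 19.6-fold that of the lowest (geometric means over both diets), and the largest difference between the diets within a baboon was 2.17-fold, in baboon 6, where the loci took 53.7% of the counts on chow and 16.8% on HCHF. In baboon 1 the values were alike although the loci took 17.3% of its chow library and 50.3% of its HCHF library.

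Across the 6 baboons, the log2 share of ENSPANG00000011638 on chow followed that on the HCHF diet (Pearson r = 0.96, exact permutation p = 0.00556; Spearman rho = 0.94, exact permutation p = 0.0167). Without baboons 2 and 5, the farthest from the median on chow, r was 0.92 (n = 4). ENSPANG00000014359 (chromosome 14 from 60003526 to 60005312), the neighboring gene, was also lowest in baboon 2 (0.00187% of the locus on chow) and highest in baboon 5 (0.0509%), with r = 0.99 (exact permutation p = 0.00278) and rho = 0.94 (exact permutation p = 0.0167), and with r = 0.9997 without baboons 2 and 5. Its counts were 2.23 to 4.83% of those of ENSPANG00000011638 in each library. Both genes have divided reads, and whether the smaller count stems from reads of the larger gene was not tested.

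The alpha locus also held genes that kept their place in a baboon. ENSPANG00000013695 (chromosome 20 from 21841 to 32874) had r = 0.89 (exact permutation p = 0.00694) and rho = 0.94 (exact permutation p = 0.0167), and r = 0.91 without baboons 3 and 4. It rests on few reads, with 3 counts in the HCHF library of baboon 6, which is 0.000950% of the locus (95% Wilson interval 0.000323 to 0.00279%). ENSPANG00000019686 (chromosome 20 from 47428 to 49179) was highest in baboon 4 (0.0789% and 0.0794% of the locus on chow and HCHF) and lowest in baboon 3 (0.0405% and 0.0391%). Its r of 0.92 (exact permutation p = 0.0167; rho = 0.83, exact permutation p = 0.0583) was 0.58 without these 2 baboons, so that the relation rests on them.

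For the other genes the chow and HCHF libraries of a baboon were not shown to be related. The share of ENSPANG00000024404 in the alpha locus varied least, from 3.48 to 5.75% over the 12 libraries, with r = 0.41 (exact permutation p = 0.432) and rho = 0.03 (exact permutation p = 1). ENSPANG00000001156 (chromosome 20 from 33697 to 34598) had r = 0.78 (exact permutation p = 0.0611; rho = 0.71, p = 0.136 by permutation), and r was 0.62 without baboons 3 and 4. ENSPANG00000008373 (chromosome 14 from 60039115 to 60042002), with 1 to 55 counts per library, had r = 0.40 (exact permutation p = 0.425; rho = 0.26, p = 0.658 by permutation), which was -0.60 without baboons 4 and 5. Of 9 relations computed, these 7, the globin share and the alpha to beta ratio, 4 had a Benjamini-Hochberg adjusted permutation p of 0.0208 to 0.0375 for r, those of ENSPANG00000011638, ENSPANG00000014359, ENSPANG00000013695 and ENSPANG00000019686. For rho the lowest adjusted p by permutation was 0.05. These relations were chosen after the values had been seen.

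**Figure D2:**
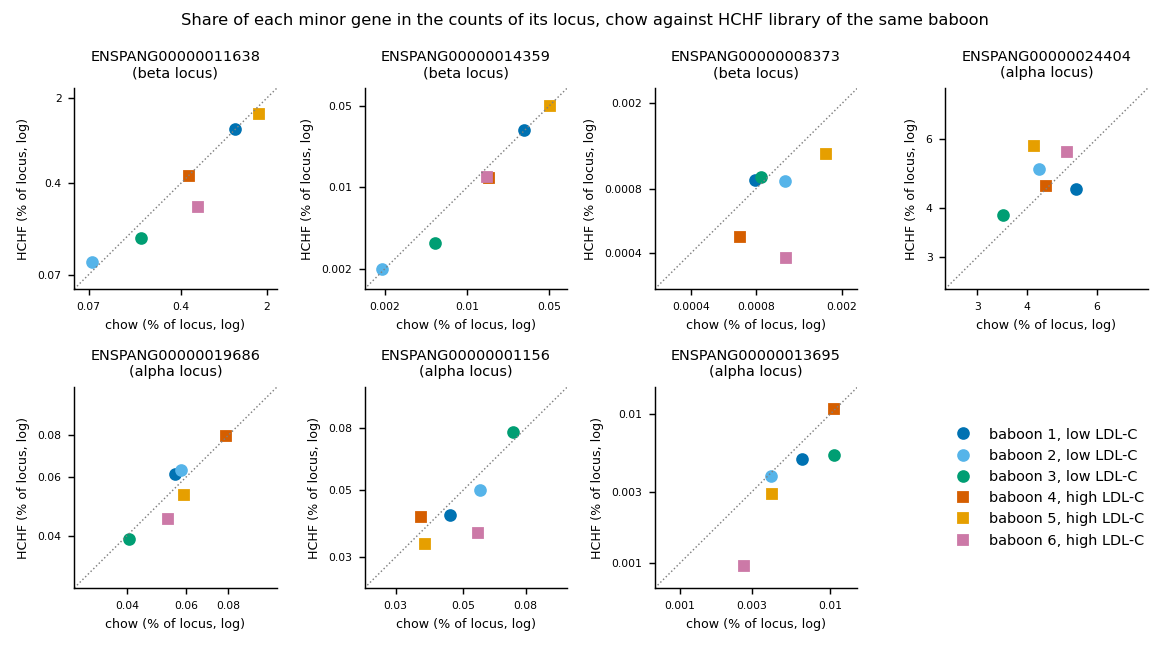
Share of each of the 7 minor genes in the counts of its locus (percent, log scales), with the chow library of a baboon on the horizontal and its HCHF library on the vertical axis, 1 point per baboon (circles low, squares high LDL-C) and a dotted line of equal shares. For ENSPANG00000011638 the points run near the line from 0.0749% in baboon 2 to 1.72% in baboon 5 on chow. Baboon 6 lies below that line, at 0.548% on chow and 0.252% on HCHF. The points of ENSPANG00000024404 stay within 3.48 to 5.75%.

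For none of the 7 minor genes did the share of the locus differ between the diets at p below 0.05 in an exact sign-flip test over the 6 pairs (two-sided, smallest possible p 0.03125). The lowest p was 0.0625, for ENSPANG00000013695, which was lower on the HCHF diet in 5 of 6 baboons (mean log2 difference -0.57 ± 0.58, SD, n = 6). ENSPANG00000024404 was higher on the HCHF diet in 5 of 6 baboons (mean log2 difference 0.13 ± 0.24, SD, n = 6, exact p = 0.25). Between the phenotypes, the geometric mean share of ENSPANG00000011638 over both diets was 2.65-fold higher in the high LDL-C phenotype. The groups overlapped (exact permutation p = 0.4, where 3 against 3 baboons cannot go below 0.1). None of the other 6 had groups that lay apart, with exact permutation p-values of 0.2 to 0.8.

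Beta locus counts exceeded alpha locus counts in 10 of the 12 libraries. These are ratios of counts and not of transcripts, since the table gives no transcript lengths. The alpha to beta ratio was 0.580 on chow and 0.447 on HCHF in baboon 1, 0.536 and 0.707 in baboon 2, and 0.841 and 0.756 in baboon 3. In high LDL-C baboons it was 0.600 and 0.573 in baboon 4, 0.622 and 1.17 in baboon 5, and 0.884 and 1.20 in baboon 6. Only the HCHF libraries of baboons 5 and 6 had more alpha than beta counts, and the ratio was higher on the HCHF diet in 3 of 6 baboons. The ratio of the most abundant gene of each locus had a mean log2 difference of 0.19 (n = 6), with exact sign-flip p = 0.406 (two-sided), and 0.05 without baboon 5 for the ratio of the loci. Over both diets the geometric mean ratio was 1.27-fold higher in the high LDL-C phenotype, and the groups overlapped (exact permutation p = 0.3). Without baboons 1 and 6 the log2 difference went from 0.35 to 0.01.

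**Figure D3:**
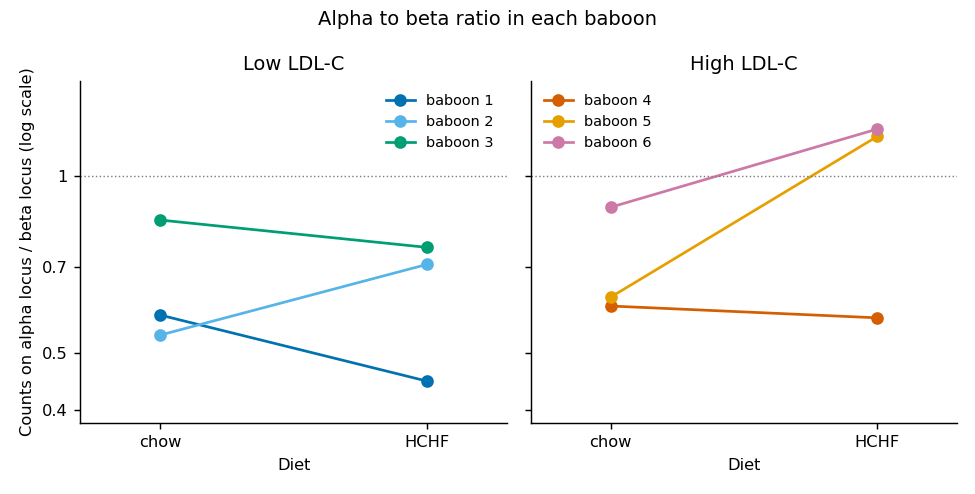
Ratio of counts on the alpha locus to counts on the beta locus (log scale) on chow and on the HCHF diet, with 1 line per baboon, low LDL-C on the left and high LDL-C on the right, and a dotted line at equal counts. The HCHF libraries of baboons 5 and 6 lie above the line at 1.17 and 1.20, and the other 10 lie below it, between 0.447 and 0.884.

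Whether the ratio moved with the amount of globin was asked across the 6 baboons, for the most abundant gene of each locus, with the log2 of their summed counts over the counts on the other genes as the amount. On chow Pearson r was -0.09 (exact permutation p = 0.814) and rho -0.03 (exact permutation p = 1), and on the HCHF diet r was -0.48 (exact permutation p = 0.354) and rho -0.37 (exact permutation p = 0.497). For the differences between the diets r was -0.60 (exact permutation p = 0.201) and rho -0.66 (exact permutation p = 0.175). The lowest p adjusted over these 3 relations was 0.525 by permutation, and without the 2 baboons farthest from the median r was 0.41, 0.19 and -0.21, so that no relation was shown.

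The abundance of the alpha and beta genes relative to all other genes was compared next, as CPM computed over the counts of genes outside the loci. ENSPANG00000001157 was at 72421, 3251340 and 820540 on chow and 298739, 728745 and 624359 on HCHF in baboons 1, 2 and 3. In baboons 4, 5 and 6 it was at 400487, 490714 and 515683 on chow and 277252, 503669 and 104305 on the HCHF diet. The low LDL-C chow libraries spanned both the lowest and the highest level of all 12, and the groups overlapped in each comparison.

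ENSPANG00000004952 was at 130648, 6340950 and 1010220 on chow and 691730, 1085940 and 859140 on HCHF in baboons 1, 2 and 3. In baboons 4, 5 and 6 it was at 695657, 809558 and 611311 on chow and 505015, 451077 and 91750 on the HCHF diet. It was lower on the HCHF diet in each high LDL-C baboon and in baboons 2 and 3, and higher in baboon 1. In high LDL-C baboons the 3 HCHF libraries lay below the 3 chow libraries. On the HCHF diet all 3 high LDL-C libraries lay below all 3 low LDL-C libraries. The share of all genes whose groups lay apart in this way was not computed, so neither separation is read as particular to this gene.

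**Figure D4:**
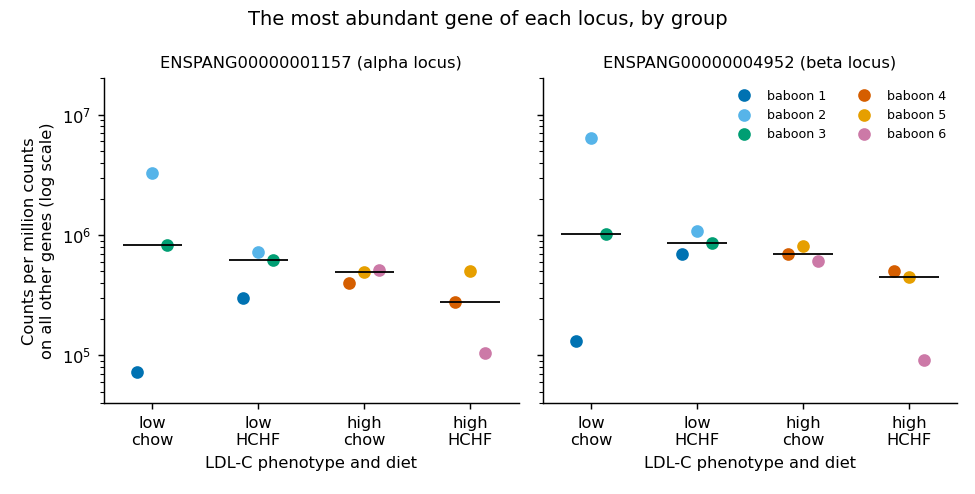
CPM over the counts of genes outside the loci (log scale) of ENSPANG00000001157 (left) and ENSPANG00000004952 (right) in the 4 groups of phenotype and diet, with 1 point per baboon and a line at the median. The low LDL-C chow group spreads most, from 130648 to 6340950 for ENSPANG00000004952. For that gene the high LDL-C HCHF points run from 91750 to 505015 and the low LDL-C HCHF points from 691730 to 1085940.

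Differential expression was then examined in edgeR by its two-sided quasi-likelihood test. All genes whose mean CPM reached 1 entered, the 9 globin genes among them, counts were scaled by TMM, and the diet comparisons held a separate term per baboon. A call required p below 0.05 before adjustment and below 0.20 after Benjamini-Hochberg adjustment across every gene tested. The test asked whether globin transcripts responded to the HCHF diet and whether they differed between the phenotypes.

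The diet response of the globin genes went in no common direction in low LDL-C baboons. Of the 9 genes 0 were called, as were 0% of the 11579 genes tested by edgeR, where 206 genes had higher and 496 lower levels with unadjusted p below 0.05, 0 of them in the loci, and DESeq2 called 10, also 0 in the loci. The log2 fold change was 0.10 for ENSPANG00000001157 (standard error 1.35) and 0.20 for ENSPANG00000004952 (standard error 1.54), both with adjusted p = 0.99 or above in edgeR. The median over the 9 genes was 0.07, compared with -0.04 over all genes tested. The baboons went opposite ways. Per count on the other genes the loci had 0.209 counts on chow in baboon 1 and 1.01 after the diet, 9.75 and 1.86 in baboon 2, and 1.86 and 1.51 in baboon 3. Without baboon 1 the log2 fold changes were -1.22 and -1.34, and without baboon 2 all 9 genes had positive fold changes with a median of 1.42 (lowest adjusted p = 0.31 in edgeR). The calls over all genes rested on baboon 2 as well, since without it edgeR called 1016 of 11831 genes, 407 higher and 609 lower, 0 of them in the loci.

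In high LDL-C baboons all 9 genes had lower fitted levels on the HCHF diet. It was 8 of 9 without baboon 6, and 8 of 9 under limma on quantile normalized values. In the main fit 0 were called, compared with 0.112% of the 11579 genes (327 higher and 172 lower with unadjusted p below 0.05, 0 of them in the loci, and 3 called by DESeq2). The log2 fold change was -0.78 for ENSPANG00000001157 (standard error 1.18) and -1.18 for ENSPANG00000004952 (standard error 1.27), with adjusted p = 1 in edgeR. The lowest of the 9 was -1.61 for ENSPANG00000008373 (standard error 1.02, unadjusted p = 0.144 from edgeR). DESeq2 also called 0 of the 9, but with library totals without TMM edgeR called ENSPANG00000004952 (-0.90, adjusted p = 0.12) among 14 of 11579 genes, and without a filter on low counts it called ENSPANG00000014359 (-1.35, adjusted p = 0.17) among 217 of 18388. The median was -1.02, beside 0.01 over all genes tested, and -0.25 without baboon 6, whose HCHF library held the lowest share of globin. Without baboon 6 the log2 fold change was -0.0149 for ENSPANG00000001157 and -0.42 for ENSPANG00000004952. Per count of the other genes the loci were 0.714-fold, 0.743-fold and 0.175-fold their chow level in baboons 4, 5 and 6.

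With all 6 baboons in 1 test, 0 of the 9 genes were called, as were 0% of 11579 (261 genes higher and 356 lower with unadjusted p below 0.05 in edgeR and 45 called by DESeq2, 0 of either in the loci). The log2 fold change was -0.40 for ENSPANG00000001157 (standard error 0.85, adjusted p = 0.98) and -0.63 for ENSPANG00000004952 (standard error 0.96, adjusted p = 0.97 in edgeR), and all 9 were negative with a median of -0.63, or 8 of 9 without TMM and under limma on quantile normalized values, 6 of 9 without baboon 2 and 5 of 9 without baboon 6. The loci were lower on the HCHF diet relative to the other genes in 5 of 6 baboons, baboon 1 being the exception. Without baboon 1 the median was -1.23 (lowest adjusted p = 0.32), and without baboon 2 or baboon 6 it was -0.12 or -0.13. Between the phenotypes the diet responses differed by -0.88 for ENSPANG00000001157 (standard error 1.8) and -1.38 for ENSPANG00000004952 (standard error 2.00), both with adjusted p = 1 in edgeR, and 0 of the 9 genes were called, compared with 0.225% of the 11579 genes (432 higher and 132 lower with unadjusted p below 0.05, 0 of them in the loci, and 5 called by DESeq2). For these the sign of the difference changed without baboon 1, to 0.45 and 0.16.

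High and low LDL-C baboons were also compared on each diet. On chow, 7 of the 9 genes had lower and 2 had higher fitted levels in high LDL-C baboons (4 lower and 5 higher without TMM, and 4 of each under limma on quantile normalized values), and 0 were called, as were 0% of 11552 genes (108 higher and 578 lower with unadjusted p below 0.05 in edgeR, and 41 called by DESeq2, 0 of either in the loci). The 2 with higher levels were ENSPANG00000011638 (log2 fold change 0.69, standard error 0.87) and ENSPANG00000014359 (0.93, standard error 0.79). ENSPANG00000001157 was at -2.35 (standard error 2.11) and ENSPANG00000004952 at -2.67 (standard error 2.46, adjusted p = 0.98 in edgeR), and without baboon 2 these became 0.05 and 0.27. With library totals without TMM, whose factor was 0.134 for the chow library of baboon 2, they were -0.02 and -0.13. Without baboons 1 and 6 they were -3.05 and -3.20, and 0 of the 9 genes were called, as were 0 of 10662 genes in all.

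On the HCHF diet all 9 genes had lower fitted levels in high LDL-C baboons. It was 7 of 9 without baboon 1 or without baboon 6, and 8 of 9 without baboon 4. Under limma on quantile normalized values it was 8 of 9, and without TMM 7 of 9, where the median of all genes was at 1.11. Without TMM 3970 of 11576 genes were called higher and 9 lower, 0 of them in the loci. ENSPANG00000004952 had a log2 fold change of -1.66 (standard error 0.59, unadjusted p = 0.0168), ENSPANG00000001156 of -1.92 (standard error 0.66, unadjusted p = 0.0149) and ENSPANG00000008373 of -1.89 (standard error 0.78, unadjusted p = 0.0345), each with an adjusted p of 0.83 in edgeR. By the call used here 0 of the 9 passed, as did 0% of 11576 genes (470 higher and 218 lower with unadjusted p below 0.05). DESeq2 called 42 genes, among them ENSPANG00000004952 (log2 fold change -1.68, adjusted p = 0.19) and ENSPANG00000001156 (-1.94, adjusted p = 0.13). ENSPANG00000001157 was at -1.20 (standard error 0.59, unadjusted p = 0.0671). The median of the 9 was -1.07, compared with 0.10 over all genes tested, and -0.58 without baboon 6. Without baboons 1 and 6 the log2 fold changes of ENSPANG00000001157 and ENSPANG00000004952 were -1.05 and -1.31. In that fit 0 of the 9 genes were called, compared with 7 of 10662 genes in all.

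**Figure D5:**
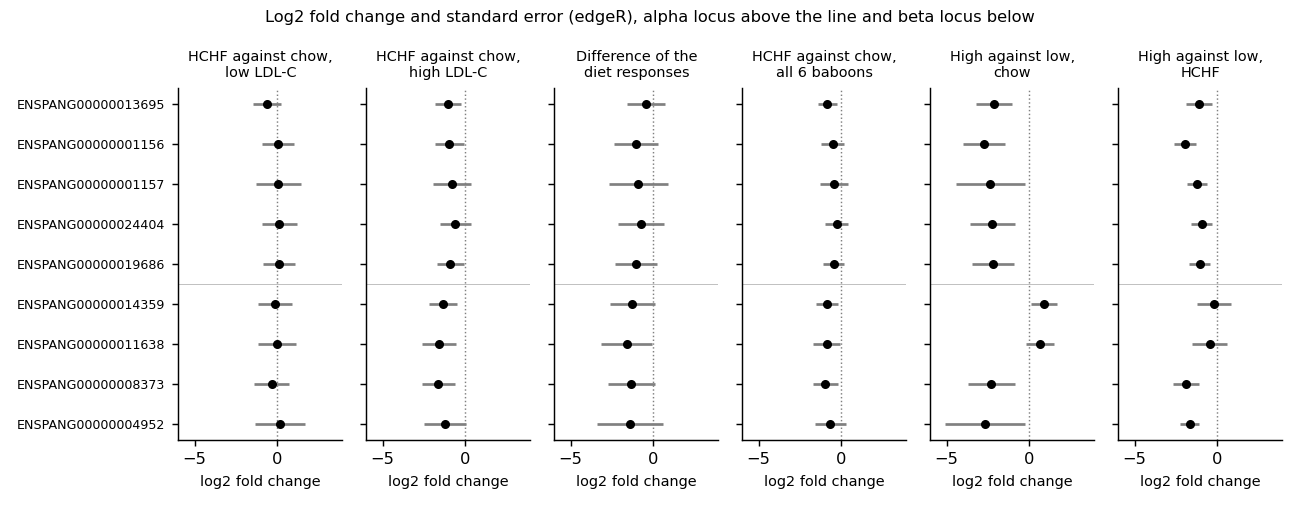
Log2 fold changes from edgeR (horizontal axis) with standard errors derived from the F statistic (bars) for the 9 genes in the 6 comparisons, with the 5 genes of the alpha locus above the line and the 4 of the beta locus below it. The diet responses lie between -0.60 and 0.20 for low LDL-C baboons and below 0 for high LDL-C baboons, and on chow ENSPANG00000011638 and ENSPANG00000014359 lie above 0, at 0.69 and 0.93, while the other 7 lie below.

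Within the loci, 7 of the 9 genes followed each other from library to library, and the other two followed only each other. Across the 12 libraries, the log2 of TMM-scaled CPM plus 1 of the 7 had pairwise Pearson correlations of 0.82 to 0.99, ENSPANG00000001157 and ENSPANG00000024404 being the closest pair. ENSPANG00000011638 and ENSPANG00000014359 correlated at 0.98 with each other and at 0.30 to 0.57 with the 7. The points share libraries and baboons, so these values describe the libraries and carry no test. They include the 3 libraries that stand apart in globin share and were not recomputed without them.

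Genes outside the loci with the most similar pattern were looked for among the other 11570 genes tested, by the same correlation. ENSPANG00000010650 (chromosome 9 from 81460826 to 81462251, mean 154 TMM-scaled CPM) was the most like ENSPANG00000001157, with r = 0.98 over the 12 libraries, and ENSPANG00000021437 (chromosome 5 from 81237740 to 81346258, mean 246 TMM-scaled CPM) the most like ENSPANG00000004952, with r = 0.99. Both were highest in baboon 2 on chow, at 1223 and 1914 CPM. The first was lowest in baboon 1 on chow (6.47 CPM), and the second in baboon 6 on the HCHF diet (10.9 CPM). Many genes shared these patterns, as 108 of the 11570 had r above 0.9 with ENSPANG00000001157 and 99 with ENSPANG00000004952. These r values include the libraries that stand apart in globin share. All genes of a library also share its TMM factor, 0.134 for baboon 2 on chow and 2.24 for baboon 6 on the HCHF diet. How far r rests on these libraries and factors was not tested.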

How the data were processed

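RNA from the buffy coat of 6 baboons on 2 diets was sequenced from paired-end libraries. Per the labels and the methods of the study, base calls came from CASAVA 1.8, trimmed reads were mapped with STAR 2.3.1j against Ensembl PapAnu2, and Partek estimated transcript abundance. What the authors deposited are thus expected counts for 29300 transcripts, without scaling for length or depth. Reads that match several transcripts are divided by estimation, which can move counts between similar globin genes.

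Counts were summed by gene. Shares, ratios and Wilson intervals were computed from the sums. For tests the sums were rounded to whole numbers and fitted with edgeR 4.0.16 (R 4.3.3; glmQLFit and glmQLFTest, TMM, mean CPM of at least 1), with limma 3.58.1 and DESeq2 1.42.0 as alternatives, and with Benjamini-Hochberg adjustment over all genes tested. Standard errors shown for edgeR are the absolute log2 fold change divided by the square root of the quasi-likelihood F statistic. Single values were tested by exact permutation (scipy 1.17.1). Only the edgeR fit was tested on simulated counts, in which genes outside the loci were changed and all genes had the same spread. The simulation held no differences between baboons and no library that stood apart, so it does not show how the fit performs for the globin genes.

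Chow and HCHF libraries were paired by the animal in the labels. Deviations of same-animal libraries from their group means correlated at 0.0914 to 0.375 over 12618 genes. The same was not computed for libraries of different animals, so these values do not test the pairing. All 9 genes are named, and for the most abundant gene of each locus the gene most correlated with it. The members and lists were chosen with earlier results of these data known. Since IDs carry no symbols here, lists of red cell genes and of cell type markers were not tested, and no sequences are shown. Alternatives were other filters, scalings and tools, no baboon term, and leaving out baboons.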

Additional observations from a re-analysis of the deposited data

How the results depend on the processing

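Of 100 alternative counts of globin genes called, 89 equalled the 0 reported. For the diet response in high LDL-C baboons 1 was called without a filter (ENSPANG00000014359, among 217 of 18388 genes) and 1 with library totals without TMM (ENSPANG00000004952, among 14 of 11579), and for the difference in diet response 1 with library totals (ENSPANG00000004952, among 71 of 11579). For high against low LDL-C on HCHF 1 was called without a filter (ENSPANG00000001156, among 380 of 17389) and 2 by DESeq2 (among 42 of 11576). The planned leave-outs of baboons 3 and 4, and of 2, 3 and 4, used another numbering of the baboons: they were meant to remove the libraries that stand apart, but keep those of baboons 1 and 6. Without baboons 2, 3 and 4, 6 were called for the diet response in low LDL-C baboons, 1 in high LDL-C baboons, 9 for the difference and 9 on chow, where 411, 335 and 558 of 12162 and 975 of 12098 genes were called in all. Without baboons 1, 2 and 6, chosen after seeing the data, 1 was called on chow and 2 on HCHF, among 60 and 15 of 10926 genes. These fits hold 1 low LDL-C baboon, assumed to vary like the others, and the calls between phenotypes rest on 3 libraries with 1 residual degree of freedom. Without baboons 1 and 6, 0 were called in each comparison, where 0 to 7 of 10662 genes were called in all. Leaving out any 1 baboon also left the count at 0 in each comparison. Over all genes these fits called from 0 up to 1016 of 11831, the latter without baboon 2 for the diet response in low LDL-C baboons. Where few or 0 genes were called in all, 0 of the 9 is no sign of stability.

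Signs of the log2 fold changes turned as follows. Without the baboon term (no replicate block), ENSPANG00000001157 and ENSPANG00000004952 went to -1.57 and -1.79 for the diet response in low LDL-C baboons and to 1.08 and 0.94 for the difference, and the unpaired fits still called 0 genes. Leaving out 1 baboon gave -1.22 to 1.39 and -1.34 to 1.65 in low LDL-C baboons, -2.17 to 0.45 and -2.84 to 0.16 for the difference, -2.91 to 0.0510 and -3.24 to 0.27 on chow, and -0.94 to 0.0621 for ENSPANG00000001157 over all 6 baboons. Without baboons 3 and 4 the low LDL-C values were -0.0219 and -0.0368. Without baboons 1 and 6 (chosen after seeing the data) they were -1.22 and -1.34, and the differences 1.20 and 0.91. Without baboons 2, 3 and 4 the values on chow were 2.72 and 2.36, and that of ENSPANG00000001157 over all 6 baboons 0.22, or 0.0229 without baboons 1, 2 and 6. Under limma on quantile normalized values ENSPANG00000001157 was at 0.19 in high LDL-C baboons, 0.45 over all 6, 0.87 on chow and 0.19 on HCHF. The log2 difference in alpha to beta ratio between the phenotypes was -0.17 without baboons 1, 2 and 6, and r of the locus ratio with the globin share was 0.39 on chow and 0.21 on HCHF without the 2 farthest baboons. The diet difference in the locus share of ENSPANG00000019686 ranged from -0.0603 to 0.0137 when 1 baboon was left out. Beyond the construction of each alternative, the cause was not tested. Of 298 alternatives for values other than these counts, 257 kept direction and side of the threshold. This tally is no measure of stability, since for some alternatives the side was fixed. Sign-flip tests with a baboon left out and permutation tests between the phenotypes cannot reach p below 0.05. Correlations without the 2 farthest baboons were compared by sign alone.

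Library totals without TMM moved the median log2 fold change of all genes to 1.11 on HCHF and to 0.04 to 0.31 in the other comparisons. With 3 baboons a phenotype and 17.3 to 90.7% globin within 1 group, the standard errors of the most abundant genes in the diet comparisons, 0.85 to 2.00 on the log2 scale, limit what could be detected.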
